A study of Arabidopsis thaliana with 12 samples.

Results

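PYK10 (AT3G09260, also called BGLU23) encodes a beta-glucosidase of Arabidopsis thaliana, and it was read here in shoots by 1 probe set, the only 1 of 22746 that the array annotation assigns to this gene alone. The gene was chosen from earlier results on these arrays, in which its level in the double mutant differed between heated and untreated plants. Its own levels and differences in all 4 groups are therefore given as a description, without a test. Tests are given for its partners and relatives, whose lists were drawn up for their tie to PYK10. These lists were also made with earlier results on these arrays known, so the tests are not independent of the choice of PYK10. Of the wider beta-glucosidase family, the genes described singly are those that passed a test.

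PYK10 protein accumulates in ER bodies, spindle-shaped compartments that bud from the endoplasmic reticulum in Brassicales and are best known from seedlings and roots. The enzyme hydrolyses glucosides, indole glucosinolates among them, and meets its substrates when cells are damaged, so it is regarded as part of chemical defence. In homogenates of damaged tissue it joins large complexes with related beta-glucosidases, jacalin-related lectins and GDSL lipase-like proteins. In intact rosette leaves of normal plants ER bodies of this kind are scarce, and PYK10 is usually described as a root gene.

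The arrays held RNA from the shoots of soil-grown plants aged 8 weeks, either Col-0 wild type or an msh1/msh1-recA3/recA3 double mutant in the Col-0 background. MSH1 and RECA3 are nuclear genes whose products guard the DNA of mitochondria, and MSH1 also that of plastids. The 4 groups were untreated wild type (n = 2), wild type heated at 37 °C (n = 3), untreated double mutant (n = 4) and double mutant heated at 37 °C (n = 3), all grown at 24 °C. How long the heat lasted is not settled, since the labels hold both 2 h and, in the protocol, roughly 24 h. The samples are labelled biological replicates, and how many plants each pooled is not given in the sources used here. MSH1 and RECA3 themselves have no probe set of their own name here, so the mutations were not checked.

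Values are log2 signals made by the authors with RMA, 1 array per sample, and the lower quartile of an array lay between 3.67 and 3.79. On the second principal component, which held 10.2% of the variance, untreated double mutant arrays 1 and 2 (-2.95 and -0.964) lay apart from arrays 3 and 4 (-22.9 and -30.9). Heated double mutant array 3 (8.73) lay apart from arrays 1 and 2 of its group (-22.5 and -26.8). It was the only double mutant array with a positive value there. All wild-type arrays were positive, at 26.9 and 26.7 untreated and 16.3, 13.5 and 15.0 heated. Why this array lay on the wild-type side was not tested. Leaving out a double mutant array changed the calls of some genes described here, and only some of those values are given. The 3 measured of 18 green shoot markers, RCA, LHCB4.1 and SBPASE, read 11.3 to 13.8, and the 3 measured of 24 root markers, the root hair expansins EXPA7 and EXPA18 and the peroxidase PER44, read 3.50 to 4.13, near the lower quartile in every array.

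PYK10 was high in the untreated double mutant and lower, at similar levels, in the other groups. Its log2 signals were 7.47, 8.69, 8.88 and 8.24 in untreated double mutant arrays 1 to 4, and 6.82 and 6.38 in the untreated wild type. They were 6.51, 5.94 and 6.34 in the heated wild type and 6.71, 6.38 and 6.68 in the heated double mutant. The 4 untreated double mutant arrays were thus the 4 highest of all 12, and their range did not overlap that of any other group. In these 4 arrays PYK10 exceeded between 77.3% and 90.7% of all probe sets, against 59.3% to 71.0% in the other 8, so its signal lay above the median of the array throughout.

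**Figure D1:**
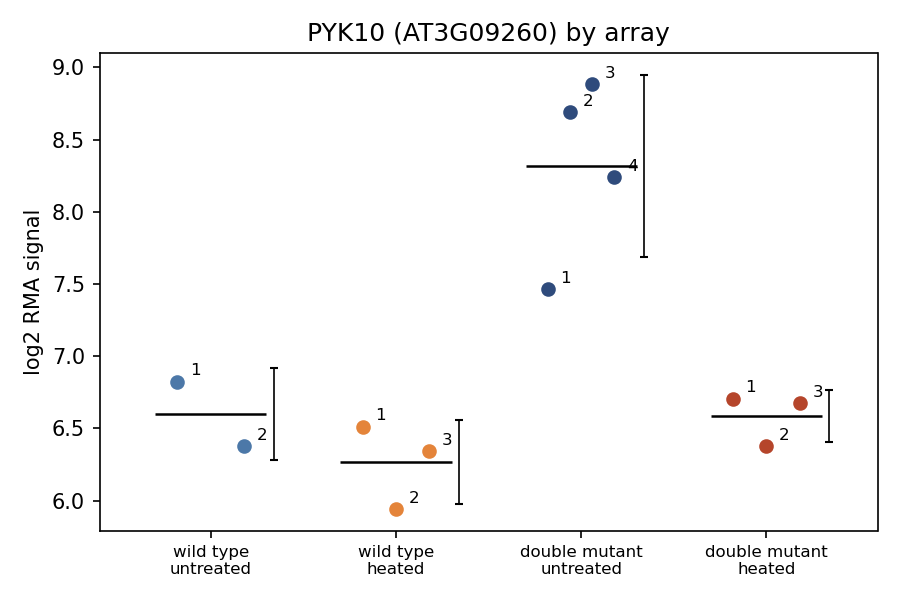
The log2 RMA signal of PYK10 on each array (points, numbered by replicate) is shown for the 4 groups on the x axis, with the group mean as a horizontal line and its SD as a bar. The untreated double mutant arrays lie between 7.47 and 8.88, and all other arrays lie at or below 6.82.

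Ordered by group mean, PYK10 read 8.32 ± 0.63 (SD, n = 4) in the untreated double mutant, 6.60 ± 0.32 (SD, n = 2) in the untreated wild type, 6.59 ± 0.18 (SD, n = 3) in the heated double mutant and 6.27 ± 0.29 (SD, n = 3) in the heated wild type. The 3 lower groups overlapped one another, so no order among them stood clear of their spread. The untreated double mutant exceeded the untreated wild type by 1.72 ± 0.33 (SE) on the log2 scale, a 3.29-fold higher signal, and 41 of 22746 probe sets had a larger positive difference. Heated double mutants stood 1.73 ± 0.29 (SE) below untreated ones, a 3.32-fold lower signal, and 218 probe sets had a larger negative difference.

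In the wild type the heated and untreated arrays overlapped, with a PYK10 difference of -0.33 ± 0.34 (SE). That value was -0.56 without untreated wild-type array 2 and -0.11 without array 1, so it rests on which of the 2 arrays is used. After heat the genotypes also overlapped, at 0.32 ± 0.31 (SE) higher in the double mutant. The difference of the heat responses was -1.40 ± 0.45 (SE), and it shares its arrays with the comparisons before it. Without untreated double mutant arrays 1 and 2 the genotype difference was 1.96 and the heat difference in the double mutant -1.98. Fewer cells with the transcript and less transcript per cell cannot be told apart in RNA from whole shoots.

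The untreated double mutant also varied most within itself. PYK10 spanned 1.42 on the log2 scale over its 4 arrays, with array 1 the lowest, against 0.33 to 0.57 in the other groups. This spread followed the principal component only in part, since array 1 was low but array 2, its neighbour there, was the second highest.

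NAI1 and NAI2 are known from Arabidopsis mutants that lack normal ER bodies. NAI1 (AT2G22770) encodes a bHLH transcription factor needed for PYK10 expression in seedlings, and NAI2 (AT3G15950) a protein of the ER body itself. These were the 2 measured of 5 listed ER body genes. Neither passed the limma test in any of the 5 comparisons. At an unadjusted p under 0.05 both were counted for heat in the double mutant, as were 9697 of 22746 probe sets. Between untreated genotypes 1 was counted, beside 4233 of all probe sets, and between heated genotypes 1, beside 2809.

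NAI2 read 4.24, 5.53, 7.03 and 6.65 in untreated double mutant arrays 1 to 4. It read 4.45 and 3.93 in the untreated wild type, 4.96, 4.23 and 4.45 in the heated wild type and 5.09, 4.29 and 4.27 in the heated double mutant. Arrays 2, 3 and 4 of the untreated double mutant were the 3 highest of all, while array 1 fell inside the wild-type range, so the groups overlapped. The genotype difference without heat was 1.67 ± 0.61 (SE; adjusted p = 0.177), about the size of that of PYK10, and the heat difference in the double mutant was -1.31 ± 0.54 (SE; adjusted p = 0.0856). Without untreated double mutant array 1 both passed, at 2.21 (adjusted p = 0.0268) and -1.85 (adjusted p = 0.00356), and without arrays 1 and 2 at 2.65 (adjusted p = 0.00397) and -2.29 (adjusted p = 0.000428). The difference of the NAI2 heat responses was -1.67 ± 0.84 (SE; adjusted p = 0.533), and -2.64 (adjusted p = 0.0491) without these 2 arrays.

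NAI1 stayed between 3.71 and 4.36 on all 12 arrays, close to the lower quartile, so its values may hold little transcript signal. It read 4.19 ± 0.07 (SD, n = 2) in the untreated wild type and 4.20 ± 0.21 (SD, n = 4) in the untreated double mutant, a difference of 0.01 ± 0.14 (SE; adjusted p = 0.98). Heat in the double mutant gave -0.30 ± 0.13 (SE; adjusted p = 0.0948). That last value passed with array weights (-0.38, adjusted p = 0.021), without untreated double mutant array 4 (-0.40, adjusted p = 0.0186) and without heated double mutant array 3 (-0.40, adjusted p = 0.0373). NAI1 therefore did not show the difference between untreated genotypes that PYK10 had, at a signal where a change would be hard to read.

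Jacalin-related lectins are sugar-binding proteins found in the PYK10 complex, where members of the family affect how far it assembles. Of 11 listed partners of the complex, 4 lectins were measured: JAL33 (AT3G16450), JAL34 (AT3G16460), JAL22 (AT2G39310) and JAL23 (AT2G39330). By locus number JAL33 lies close to JAL34 and JAL22 close to JAL23, so the 4 may not count as separate cases. Whether their probe sets can read each other's transcripts was not tested. Of these 4, 3 were higher and none lower in the untreated double mutant than in the untreated wild type, where 2.23% of all probe sets were called higher and 0.466% lower. Their median difference was 1.48, against 0.02 over all probe sets. With arrays centred on 9 reference genes the higher calls over the whole table went from 507 of 613 to 190 of 690, while the same 3 lectins passed, all higher.

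JAL33 read 6.74, 7.06, 7.84 and 7.34 in the untreated double mutant and 5.85 and 5.24 in the untreated wild type, and was higher by 1.70 ± 0.29 (SE; adjusted p = 0.0156). JAL22 read 6.30, 6.74, 7.25 and 7.10 against 5.66 and 5.04, and was higher by 1.50 ± 0.28 (SE; adjusted p = 0.021). JAL23 read 9.43, 10.19, 10.49 and 9.99 against 8.69 and 8.44, and was higher by 1.46 ± 0.31 (SE; adjusted p = 0.0346). JAL34 missed the threshold, at 7.04, 7.53, 7.52 and 7.62 against 6.68 and 6.35, a difference of 0.91 ± 0.22 (SE; adjusted p = 0.0578). In all 4 lectins every untreated double mutant array lay above both wild-type arrays, and array 1 was the lowest of its group, as it was for PYK10. How many of all probe sets separate in this way was not counted.

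Several alternatives lost these calls. Without untreated wild-type array 2 no lectin passed and without array 1 or without untreated double mutant array 4 only 1 did, and JAL23 was also lost without untreated double mutant array 2 or 3, while all differences stayed between 0.74 and 2.05 in every alternative run. None passed when the fit held only these groups, and JAL23 was lost after quantile normalization (adjusted p = 0.0679). Without untreated double mutant array 1, JAL34 passed as well (1.04, adjusted p = 0.0349).

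**Figure D2:**
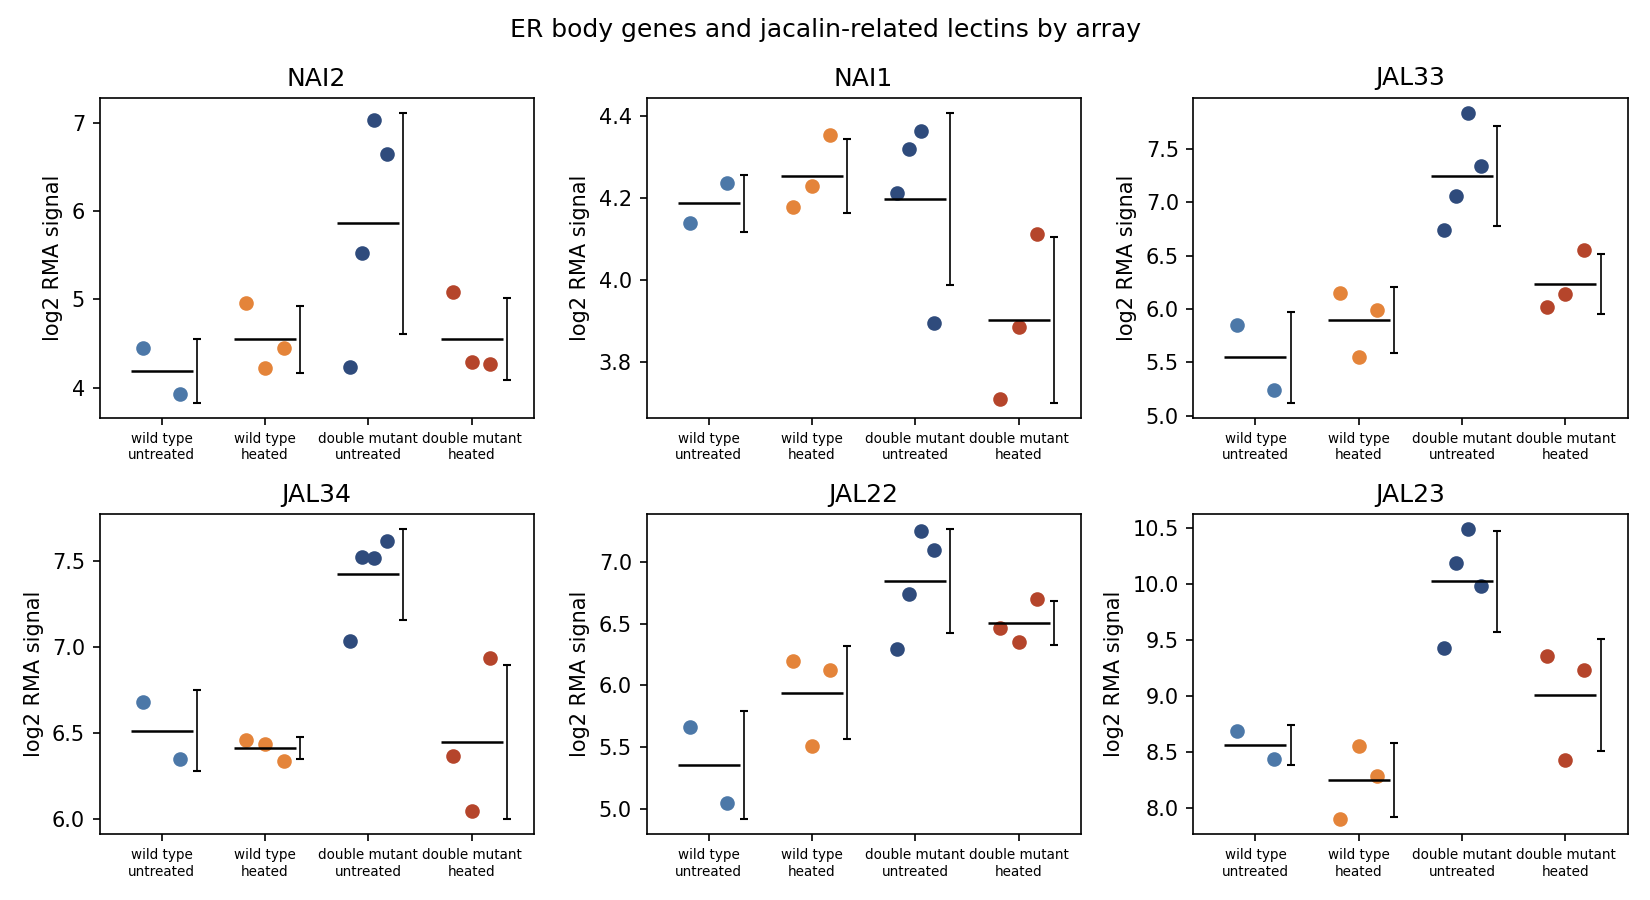
Each panel shows the log2 RMA signal of 1 gene on each array (points), with the group mean as a line and the SD as a bar. NAI2 and the 4 lectins are highest in the untreated double mutant, with NAI2 spread from 4.24 to 7.03 there, while NAI1 stays between 3.71 and 4.36.

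Heat lowered most of the lectins in the double mutant. Of the 4, 3 fell and none rose, where 20.2% of all probe sets were called lower and 13.8% higher, and their median difference was -0.99 against 0.01 over all probe sets. The centring on reference genes moved the higher calls over the whole table from 3140 of 7725 to 7759 of 10941, and JAL23, JAL33 and JAL34 still fell. JAL34 read 6.37, 6.05 and 6.94 in the heated double mutant and changed by -0.97 ± 0.20 (SE; adjusted p = 0.00257). JAL33 read 6.02, 6.13 and 6.55 and changed by -1.01 ± 0.26 (SE; adjusted p = 0.00973). JAL23 read 9.35, 8.43 and 9.23 and changed by -1.02 ± 0.27 (SE; adjusted p = 0.013), a call lost without heated double mutant array 2 (-0.73, adjusted p = 0.0602).

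JAL22 did not follow as far. It read 6.47, 6.35 and 6.70 in the heated double mutant, which overlapped the untreated arrays, and its difference was -0.34 ± 0.24 (SE; adjusted p = 0.321). For JAL23, JAL33 and JAL34 the heated and untreated double mutant arrays did not overlap. The same held for PYK10, which was chosen for its difference in this comparison. The share of all probe sets without such overlap was not counted.

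In the wild type no lectin passed the test for heat, where 13.7% of all probe sets were called higher and 12.8% lower, nor did any reach an unadjusted p under 0.05. JAL33 read 6.15, 5.55 and 5.99 after heat, JAL34 6.46, 6.44 and 6.34, JAL22 6.20, 5.51 and 6.12 and JAL23 7.90, 8.56 and 8.29. The differences ran from -0.31 ± 0.32 (SE) for JAL23 to 0.59 ± 0.29 (SE) for JAL22. Between heated genotypes no lectin passed in limma, where 0.897% of all probe sets were called. An unadjusted p under 0.05 was found there for 1 of 4 lectins and 2809 of 22746 probe sets. The widest gap was that of JAL23, at 0.76 ± 0.29 (SE; adjusted p = 0.294).

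The difference of the heat responses was negative for all 4 lectins but passed for none, where 0.0747% of all probe sets were called. It was -1.36 ± 0.40 (SE; adjusted p = 0.284) for JAL33, -0.93 ± 0.38 (SE; adjusted p = 0.424) for JAL22, -0.87 ± 0.31 (SE; adjusted p = 0.362) for JAL34 and -0.70 ± 0.42 (SE; adjusted p = 0.607) for JAL23. At an unadjusted p under 0.05 there were 3 of 4 lectins and 2372 of all 22746 probe sets. That the lectins fell in the double mutant and passed no test in the wild type does not by itself show a different response. These comparisons share arrays, so their values are side by side and are not independent.

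**Figure D3:**
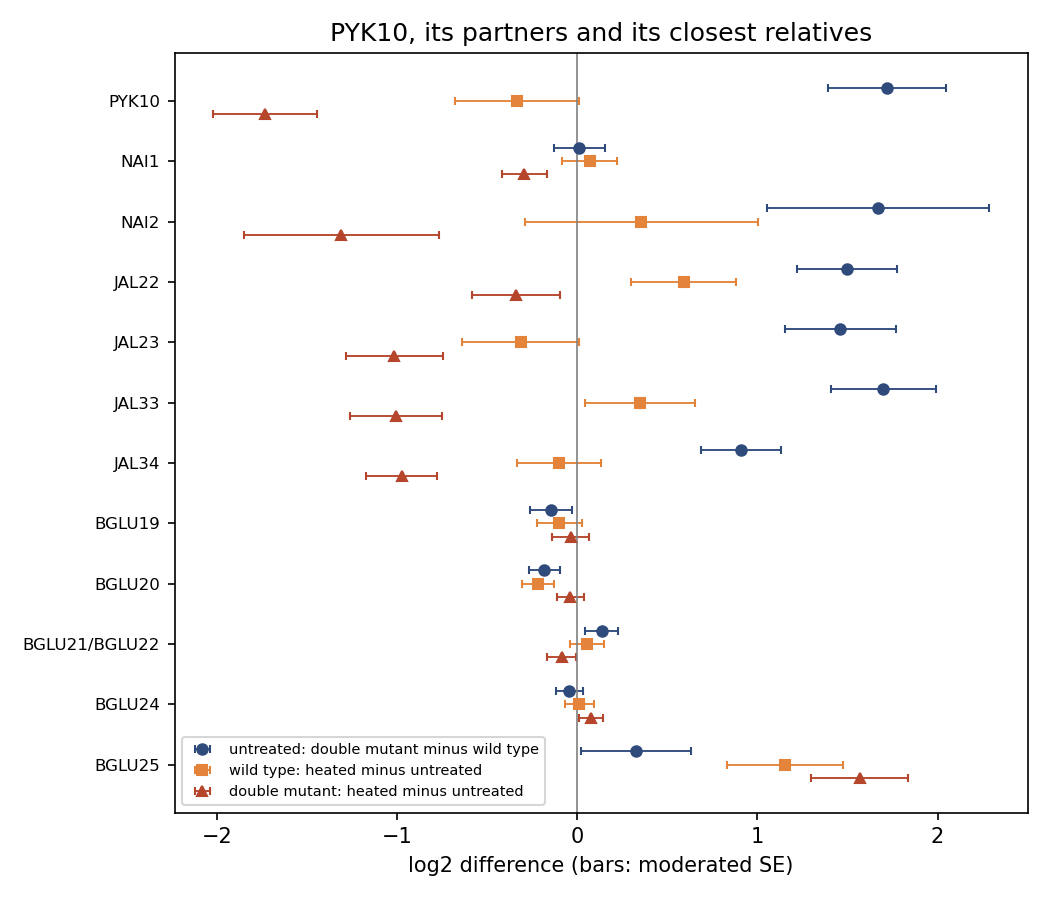
Log2 differences (x axis, bars are the moderated SE) are given for PYK10, its partners and its closest relatives in 3 comparisons, marked by colour and shape. PYK10, NAI2 and the lectins lie to the right between untreated genotypes and to the left for heat in the double mutant, whereas BGLU25 lies to the right for heat in both genotypes.

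The closest relatives of PYK10 among beta-glucosidases are BGLU18 to BGLU25, several of which are ER body or ER-retained enzymes. Of 7 listed, 4 were measured alone: BGLU19 (AT3G21370), BGLU20 (AT1G75940, also ATA27, known from anthers), BGLU24 (AT5G28510) and BGLU25 (AT3G03640). BGLU21 and BGLU22, which together with PYK10 form the core of the complex in roots, shared a probe set that cannot separate them. That probe set read 3.14 to 3.50 on all arrays, below the lower quartile, and so did BGLU20 (3.05 to 3.44) and BGLU24 (3.03 to 3.21), while BGLU19 (3.47 to 3.91) lay around it. These 5 genes were not shown to exceed background in shoots, and none was called in any comparison.

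BGLU25 was the relative with a clear signal, and it went the other way from PYK10 under heat. It read 6.49 and 6.72 in the untreated wild type, 7.42, 8.00 and 7.86 in the heated wild type, 6.86, 6.78, 7.17 and 6.93 in the untreated double mutant and 9.11, 8.69 and 7.71 in the heated double mutant. The heated arrays lay above the untreated ones in both genotypes. It rose by 1.15 ± 0.32 (SE; adjusted p = 0.0208) in the wild type and by 1.57 ± 0.27 (SE; adjusted p = 0.000875) in the double mutant. The untreated genotypes differed by 0.33 ± 0.31 (SE; adjusted p = 0.619). The wild-type call was lost without either untreated wild-type array or without heated wild-type array 2 or 3 (1.03 to 1.27, adjusted p = 0.0577 to 0.132).

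Over the wider family, 21 of 46 beta-glucosidase genes other than PYK10 were measured under their own name. On no array did 11 of them reach 4, so these too may lie at background. With heat 2 rose and 3 fell in each genotype, against 13.7% higher and 12.8% lower of all probe sets in the wild type and 13.8% and 20.2% in the double mutant, so the family's shares were near or below those of the whole table. The medians were 0.01 for the wild type and 0.02 for the double mutant, against 0.01 over all probe sets in either case. The risers were BGLU25 and BGLU16 and the fallers BGLU33, BGLU40 and BGLU45 in both cases. Whether any response differed between genotypes was tested, and none of the 21 passed (0.0747% of all probe sets did). An unadjusted p under 0.05 was found for 1 gene, and for 2372 of 22746 probe sets.

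BGLU33 (AT2G32860), like PYK10, read highest in the untreated double mutant. In both genotypes its heated arrays also lay below the untreated wild type, whereas those of PYK10 overlapped it. It read 6.28 and 6.46 in the untreated wild type, 7.13, 6.91, 7.71 and 7.83 in the untreated double mutant, 5.19, 4.88 and 5.30 in the heated wild type and 4.64, 5.02 and 4.96 in the heated double mutant. It fell in both, with changes of -1.25 ± 0.25 (SE; adjusted p = 0.00345) in the wild type and -2.52 ± 0.21 (SE; adjusted p = 4.23e-06) in the double mutant, and the heated and untreated arrays did not overlap. Without heat it was 1.03 ± 0.24 (SE; adjusted p = 0.0475) higher in the double mutant, a call lost in 14 of 20 alternatives. Its heat responses differed by -1.28 ± 0.33 (SE; adjusted p = 0.243), which passed only without untreated double mutant arrays 1 and 2 (-1.65, adjusted p = 0.0295). BGLU33 thus fell in the wild type too, where the PYK10 arrays overlapped.

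BGLU45 (AT1G61810), one of the enzymes that act on glucosides of lignin precursors, fell as well, with changes of -1.72 ± 0.39 (SE; adjusted p = 0.00675) in the wild type and -1.70 ± 0.33 (SE; adjusted p = 0.00182) in the double mutant. Its untreated arrays read 4.58 to 6.08 and its heated arrays 3.25 to 3.87, around the lower quartile, so the sizes of these changes may be set by background and understate the fall. The wild-type call was lost without untreated array 1 (-0.97, adjusted p = 0.0847). BGLU40 (AT1G26560) changed by -0.82 ± 0.20 (SE; adjusted p = 0.0108) in wild type and -1.11 ± 0.17 (SE; adjusted p = 0.000365) in the double mutant, the first call being lost without untreated wild-type array 2 (-0.52, adjusted p = 0.138).

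BGLU16 (AT3G60130) rose by 1.05 ± 0.20 (SE; adjusted p = 0.00271) in the wild type and by 0.50 ± 0.17 (SE; adjusted p = 0.042) in the double mutant, where the groups overlapped and 12 of 20 alternatives lost the call. Without heated double mutant array 3 the latter was 0.37 (adjusted p = 0.154), without untreated double mutant array 1 it was 0.52 (adjusted p = 0.0619), without array 2 it was 0.46 (adjusted p = 0.0957) and without both 0.47 (adjusted p = 0.156). BGLU44 (AT3G18080), like BGLU33, was higher in the untreated double mutant, at 9.38, 9.21, 9.44 and 9.70 against 8.69 and 8.52, by 0.83 ± 0.15 (SE; adjusted p = 0.0192), a call lost in 5 of 20 alternatives, among them the fits without untreated wild-type array 1 (0.91, adjusted p = 0.0935) or 2 (0.74, adjusted p = 0.142). Its heat difference in the double mutant passed only without untreated double mutant array 2 (-0.42, adjusted p = 0.0344), without arrays 1 and 2 (-0.48, adjusted p = 0.0357) or without heated double mutant array 1 (-0.47, adjusted p = 0.0225). BGLU33 and BGLU44 were the 2 of 21 family members called between untreated genotypes, both higher, against 2.23% higher and 0.466% lower of all probe sets.

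Between heated genotypes no family member was called, against 0.897% of all probe sets, and 4 of 21 had an unadjusted p under 0.05, as had 2809 of 22746 probe sets. The smallest p belonged to BGLU16, at -0.66 ± 0.18 (SE; adjusted p = 0.141). Without heated double mutant array 3 both BGLU16 (-0.79, adjusted p = 0.0439) and BGLU25 passed, BGLU25 moving from 0.74 ± 0.29 (SE; adjusted p = 0.3) to 1.14 (adjusted p = 0.00942). BGLU16 also passed with array weights (-0.72, adjusted p = 0.0354).

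**Figure D4:**
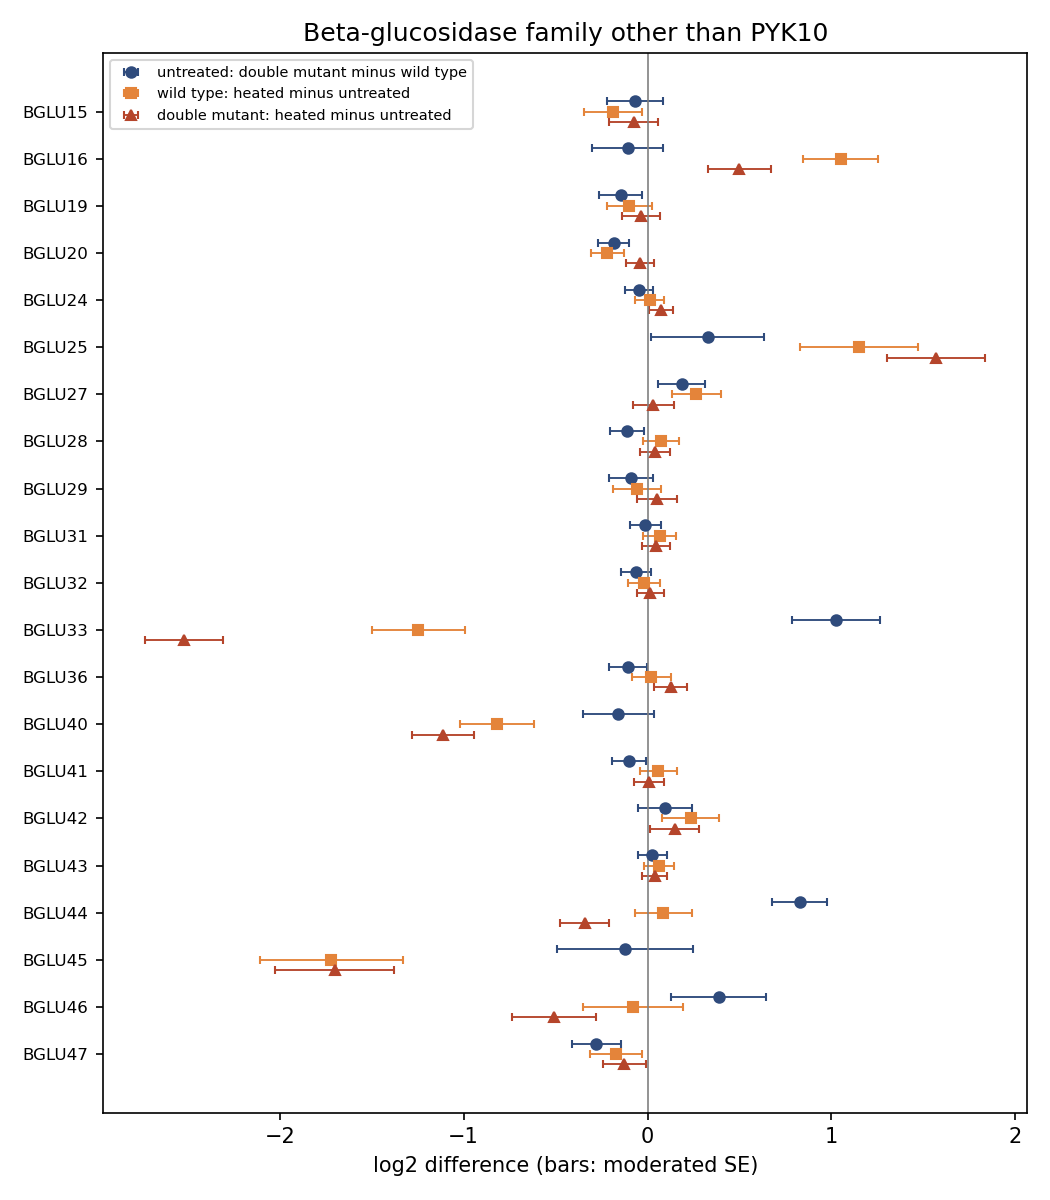
Log2 differences (x axis, bars are the moderated SE) are given for the 21 measured beta-glucosidase genes other than PYK10 in 3 comparisons. Most genes sit near 0, while BGLU33, BGLU40 and BGLU45 lie to the left and BGLU16 and BGLU25 to the right for heat in both genotypes.

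The substrates of PYK10 and the pathways around it were poorly covered. Of 18 listed genes of indole glucosinolate synthesis 1 was measured, the glucosyltransferase UGT74B1 (AT1G24100). It stood at 8.40 ± 0.02 (SD, n = 2), 8.42 ± 0.16 (SD, n = 3), 8.68 ± 0.12 (SD, n = 4) and 8.60 ± 0.40 (SD, n = 3) in untreated and heated wild type and untreated and heated double mutant, and it was called in no comparison. None of 12 listed genes of glucosinolate hydrolysis and none of 13 jasmonate genes was measured under its own name, so these pathways were not analysed here.

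PYK10 is usually described as a root gene, so the root markers are set beside it. Of 24 listed, 3 were measured, and they read 3.50 to 4.13, near the lower quartile (3.67 to 3.79). Their sums may therefore hold little transcript signal. Summed over the 3 measured, they ran from 10.8 to 11.1 in the untreated double mutant, where PYK10 was highest, from 11.5 to 11.7 in the untreated wild type, from 11.2 to 11.9 in the heated wild type and from 11.1 to 11.5 in the heated double mutant. None was called in any comparison, and the smallest adjusted p between untreated genotypes was that of EXPA7, lower in the double mutant by limma (-0.38 ± 0.10 SE, adjusted p = 0.0694). The 3 green shoot markers summed to 38.8 to 39.3 in the untreated double mutant, against 37.7 to 38.5 in the other groups. RCA, Rubisco activase, was higher there than in the untreated wild type (0.46 ± 0.09 SE, adjusted p = 0.0291), where 2.23% of all probe sets were called higher. It rose with heat in the wild type (0.32 ± 0.10 SE, adjusted p = 0.0312), where 13.7% were called higher. With heat in the double mutant the antenna protein LHCB4.1 (-0.23 ± 0.07 SE, adjusted p = 0.0173) and the Calvin cycle phosphatase SBPASE (-0.46 ± 0.13 SE, adjusted p = 0.02) fell, where 20.2% of all probe sets were called lower. The part of tissue makeup, root material included, in the PYK10 values was not tested.

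In the RefSeq annotation of TAIR10.1 the protein-coding gene AT3G09250 lies next to PYK10 and overlaps it, and GSTU8 is the next coding gene on the other side. AT3G09250 read 7.21 and 7.29 in the untreated wild type, 7.56, 7.35, 7.22 and 7.52 in the untreated double mutant, 6.83, 6.86 and 6.57 in the heated wild type and 6.96, 6.84 and 6.90 in the heated double mutant. Heat lowered it in both genotypes, with changes of -0.50 ± 0.12 (SE; adjusted p = 0.0106) in the wild type and -0.51 ± 0.10 (SE; adjusted p = 0.0024) in the double mutant, and the untreated genotypes differed by 0.16 ± 0.12 (SE; adjusted p = 0.492). The neighbour thus did not have the high level in the untreated double mutant. GSTU8 was not measured under its own name, and whether probes of either gene can read the other was not tested.

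Likeness to PYK10 was measured as Pearson's r over the 12 arrays among 1767 other probe sets with 1 gene and an SD of at least 0.5. The points share arrays and fall into groups, so r is a description. The 8 most alike were AT2G35480 (r = 0.939), the anthocyanin malonyltransferase AT5MAT (0.924), AT1G54020 of the GDSL lipase-like family (0.922), JAL34 (0.921), the indole synthase AT4G02610 (0.916), the anthocyanin glucosyltransferase AT4G14090 (0.909), JAL23 (0.907) and JAL33 (0.907). Thus 3 of the 4 measured lectins were among them. NAI2 ranked at 46 of 1767 (r = 0.832) and JAL22 at 180 (r = 0.742), whereas r was 0.195 for NAI1 and -0.465 for BGLU25.

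For NAI2 and the lectins part of the likeness remained when the group means were taken out. For deviations from the group means r was 0.809 for JAL22, 0.777 for NAI2, 0.766 for JAL33, 0.621 for JAL23 and 0.590 for JAL34. It was 0.439 for BGLU19, 0.231 for BGLU24, 0.207 for NAI1, 0.165 for BGLU20 and -0.071 for BGLU25. By this measure JAL33 ranked at 10, JAL23 at 39 and JAL34 at 48 of 1767. The untreated double mutant had the widest PYK10 spread (SD 0.63, against 0.18 to 0.32 in the other groups), so its arrays weigh most in these values. AT1G54020 read 7.0, 8.98, 9.16 and 7.79 in the untreated double mutant, 7.20 and 5.78 in the untreated wild type, 4.87, 4.66 and 4.20 in the heated wild type and 5.60, 3.88 and 6.08 in the heated double mutant. Arrays 2 and 3 of the untreated double mutant were its highest, as they were for PYK10. Of the anthocyanin genes, AT5MAT read 4.54, 5.64, 5.32 and 4.75 in the untreated double mutant and 3.91 to 4.31 on the other arrays.

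**Figure D5:**
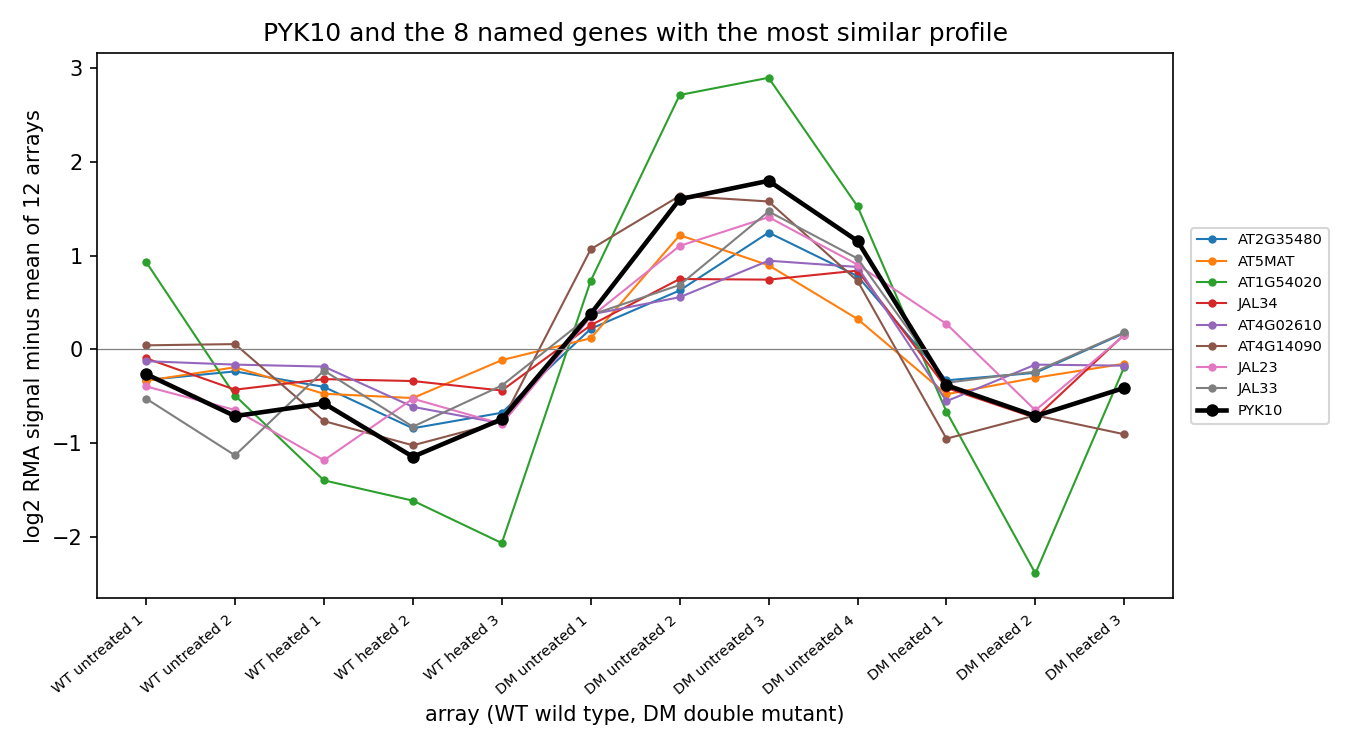
The log2 RMA signal minus its mean over the 12 arrays (y axis) is drawn by array (x axis) for PYK10 (black) and 8 named genes. These had the highest Pearson r among genes with an SD of at least 0.5, and the lines only join points of a gene. The profiles peak together in the untreated double mutant, and AT1G54020 has the widest swing, from 3.88 to 9.16 in signal.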

How the data were processed

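The deposited values are log2 signals per probe set, which the authors made with RMA from the affy package, per the submitters' processing notes; versions and settings are not given in the sources used here. They were used as deposited. RMA compresses differences of dim probe sets, and an array's number of replicates limits the precision. Of 22810 rows 64 controls were left out. Of the rest, 13513 carried 1 gene in the annotation, 503 carried several and 8730 carried no gene, and 13436 were matched by gene number to RefSeq TAIR10.1, which gave loci and symbols. No probe set was removed for low signal.

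limma (version 3.58.1, R 4.3.3) was fitted to all 12 arrays with a mean per group (8 residual degrees of freedom), and two-sided moderated tests were adjusted over 22746 probe sets by Benjamini-Hochberg at 0.05; errors of differences are moderated SE. A listed gene was read by its probe set with the highest mean. PYK10, the gene lists and the rule for named genes (all members of the ER body, complex and close relative lists, up to 3 rises and falls of other lists, and the genes most and least like PYK10) were chosen with earlier results of these data known. The procedure was tested on simulated data. Alternatives were 2 scalings, the upper 0.5 of probe sets by mean signal, a replicate block, trend and robust moderation, array weights, only the groups compared and each array left out; the fit without untreated double mutant arrays 1 and 2 was chosen after the data were seen. Promoter motifs and sequences were not analysed here. Figures used Python 3.11.15 and matplotlib 3.10.9.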

Additional observations from a re-analysis of the deposited data

Results flagged for a closer look

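In the untreated double mutant, the only group of 4 arrays, 3 of 55 genes had 1 array far from the other 3, measured as the gap to the nearest array over the whole range; chance gives about 1 in 20. JAL34 had a ratio of 0.834, with array 1 at 7.04 and the others at 7.52 to 7.62. BGLU42 had 0.943, with array 1 at 6.08 and the others at 6.45 to 6.47. BGLU32 had 0.845, within a range of 3.10 to 3.15 that lies below the lower quartile of the arrays.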

How the results depend on the processing

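The 5 PYK10 differences kept their sign and moved by less than the residual SD in all alternatives, 20 for each (19 for the difference of responses). They stayed between 1.50 and 2.00 for the untreated genotypes and between -2.02 and -1.55 for heat in the double mutant. Many of these runs could not move a given difference, such as those that changed only the moderation or left out an array of another group. The limit was also wide, since values of -0.56 to -0.11 for heat in the wild type all lay within it. Same-numbered arrays of different groups were not paired: their deviations correlated at -0.348 to 0.265, above 0.1 in 3 of 15 cases. With the replicate block the PYK10 differences were 1.63 and -1.76, and 0 of the 4 lectins and 0 family members passed between untreated genotypes (JAL33, JAL22 and JAL23 had adjusted p of 0.066, 0.0941 and 0.162), while NAI1 passed for heat in the double mutant (-0.40, adjusted p = 0.00869). Between untreated genotypes 613 probe sets passed in the fit reported, 109 with the block and 109 with only the groups compared. With only those groups 0 lectins and 0 family members passed as well. Without untreated wild-type array 1 or 2 the count of probe sets was 113 or 140, without heated wild-type array 1 or 2 381 or 344, without untreated double mutant array 3 or 4 271 or 247, after quantile normalization 275, and without untreated double mutant arrays 1 and 2 together 1469. For heat in the wild type it was 6027, and 3912 without untreated wild-type array 1. Leaving out each array gave 0 to 4 lectins and 0 to 2 family members there, 3 to 5 family members for heat in the wild type and 0 to 2 between heated genotypes. Fits without 1 untreated wild-type array assume that the lone array varies like the other groups. Between untreated genotypes 0 family members passed after quantile normalization, 1 with arrays centred on 9 reference genes and 1 with array weights; between heated genotypes 1 passed with array weights, and for the difference of responses 1 passed without untreated double mutant arrays 1 and 2. For heat in the double mutant 9 family members passed with the reference centring, after which the probe sets as a whole had a median of 0.17 there and -0.14 between untreated genotypes. Quantile normalization gave 165 higher of 275 calls between untreated genotypes. Among the dim relatives BGLU24 passed for heat in the double mutant with the reference centring (0.24) and BGLU20 for heat in the wild type with trend and robust moderation (-0.22). The reference genes moved too: SAND fell in both genotypes (-0.43 and -0.71), TIP41L and RHIP1 rose in the wild type (0.32 and 0.29) and AP2M fell in the double mutant (-0.45). Of the single genes' alternatives 2695 kept their side of the threshold, 55 lost and 31 gained a call, and none reversed. Of the 8 genes most like PYK10, 3 stayed among the first 8 by Spearman's rho and 1 by deviations from group means. The cause of these changes was not tested, apart from fewer arrays where arrays were left out. Probe sets near the lower quartile bound what can be said of the dim relatives.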

Other observations

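Many of the probe sets most like PYK10 have no gene name here. Of the 20 most like it over the whole table (r from 0.922 to 0.961), 7 carried 1 gene, 1 carried several and 12 carried no gene. Of all 22746 probe sets 8730 carried no gene. Of the 8 named genes only AT2G35480 (r = 0.939) and AT5MAT (0.924) were among these 20. The SD limit of 0.5 left out the other probe sets with 1 gene, so the named genes are not the closest set as a whole.

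The genes least like PYK10 were the pectin methylesterase PME61 (r = -0.918), AT5G63130 (-0.888), the thaumatin family member AT1G20030 (-0.886) and AT3G60540 (-0.871), chosen by r over the 12 arrays and so given without a test. PME61 read 6.40, 5.48, 5.19 and 5.42 in the untreated double mutant and 7.06 and 7.01 in the untreated wild type. It read 7.60, 7.42 and 7.40 in the heated wild type and 7.11, 6.81 and 6.21 in the heated double mutant. Its 3 lowest arrays were untreated double mutant arrays 2, 3 and 4, while array 1 of that group lay above heated double mutant array 3, so heated and untreated double mutant arrays overlapped.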
